A study of Mus musculus with 8 samples.

Results

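The prostaglandin genes described here are the 10 genes of the deposited table whose symbol is Ptgs1, Ptgs2, Ptges, Ptges2, Ptges3, Ptgis, Ptger1, Ptger4, Hpgd or Pla2g4a, out of 22322 genes in all. They were measured by RNA sequencing in 8 libraries from primary mouse renal fibroblasts. The cells of 4 libraries are labelled Ad-Cre, with the genotype suv39h1 knockdown, and those of the other 4 Ad-GFP, with the genotype WT. Ad-Cre and Ad-GFP are the usual names of adenoviral vectors that deliver Cre recombinase or, as the control, green fluorescent protein. All 8 received TGF-β at 5 ng/ml for 48 h, so the controls were stimulated as well and no unstimulated cells enter the comparison. Suv39h1 encodes a histone methyltransferase that places the repressive H3K9 mark, and TGF-β turns fibroblasts into matrix-producing myofibroblasts. The labels give no age or strain of the mice, do not name the allele that Cre acts on, and do not say whether replicates were separate cultures or animals. The p-values therefore measure only the spread between these libraries, which may be technical.

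Prostaglandins are short-lived lipid signals made from arachidonic acid. Cytosolic phospholipase A2 (Pla2g4a) releases the fatty acid from membranes, and the cyclooxygenases convert it to PGH2. Ptgs1 encodes the form that most cells make constitutively and Ptgs2 the form induced by cytokines and growth factors. Terminal synthases then turn PGH2 into PGE2 (Ptges, Ptges2, Ptges3) or prostacyclin (Ptgis). PGE2 acts on 4 G protein-coupled EP receptors, and 15-hydroxyprostaglandin dehydrogenase (Hpgd) inactivates it. In the kidney, prostaglandins are known for their effects on blood flow and on salt and water handling, and PGE2 is known to restrain fibroblast activation in several organs.

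Libraries held 18006938 to 23940043 counts in Ad-Cre and 15879244 to 17930632 in Ad-GFP, so each Ad-Cre library was deeper than each Ad-GFP library. Suv39h1 itself was at 23.1 ± 1.6 CPM (counts scaled to a common library size) in Ad-Cre and 28.9 ± 0.77 CPM in Ad-GFP (SD, n = 4 each), which is 79.6% of Ad-GFP (edgeR adjusted p = 3.29e-05). This is the count over the whole gene, and how much intact transcript was left was not measured. The gene length implied by its counts and FPKM was 2.77 to 2.83 kb in Ad-Cre and 2.88 to 2.94 kb in Ad-GFP. The labelled cell type was only partly borne out by its markers. The 11 fibroblast markers summed to 502 to 578 CPM in Ad-Cre and 775 to 821 CPM in Ad-GFP, led by Vim and Col1a1. Among them, Thy1 was at 1.54 ± 0.42 CPM in Ad-Cre and 7.19 ± 0.43 CPM in Ad-GFP. Lum did not pass the filter on low counts, and its highest count in any library was 12. The 9 epithelial markers summed to 4857 to 4957 CPM in Ad-Cre and 5284 to 5486 CPM in Ad-GFP, led by Krt8 and Cldn4. The cells behind each prostaglandin transcript were not determined.

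Promoter windows of 300 bases are shown for the members with the largest falls, Ptgs2 and Hpgd, and for Ptgs1, the constitutive counterpart of Ptgs2. Each runs 5′ to 3′ on the strand of its gene, from 250 bases before to 50 bases after the RefSeq start (GRCm38.p6), and capitals mark motif matches. Ptgs2 lies at chr1:150099781-150100080 (plus strand), Hpgd at chr8:56294302-56294601 (plus strand) and Ptgs1 at chr2:36230176-36230475 (plus strand).
Ptgs2: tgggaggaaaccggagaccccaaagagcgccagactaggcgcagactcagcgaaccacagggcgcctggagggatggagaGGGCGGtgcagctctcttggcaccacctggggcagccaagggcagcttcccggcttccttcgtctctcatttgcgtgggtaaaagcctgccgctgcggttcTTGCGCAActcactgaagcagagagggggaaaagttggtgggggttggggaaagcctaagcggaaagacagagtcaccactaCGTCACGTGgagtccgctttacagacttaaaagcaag
Hpgd: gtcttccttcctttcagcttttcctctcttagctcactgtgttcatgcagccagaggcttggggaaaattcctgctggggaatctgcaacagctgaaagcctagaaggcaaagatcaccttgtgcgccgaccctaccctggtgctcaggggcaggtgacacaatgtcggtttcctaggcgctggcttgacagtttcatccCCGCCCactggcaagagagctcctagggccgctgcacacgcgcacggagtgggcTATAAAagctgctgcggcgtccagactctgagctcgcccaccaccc
Ptgs1: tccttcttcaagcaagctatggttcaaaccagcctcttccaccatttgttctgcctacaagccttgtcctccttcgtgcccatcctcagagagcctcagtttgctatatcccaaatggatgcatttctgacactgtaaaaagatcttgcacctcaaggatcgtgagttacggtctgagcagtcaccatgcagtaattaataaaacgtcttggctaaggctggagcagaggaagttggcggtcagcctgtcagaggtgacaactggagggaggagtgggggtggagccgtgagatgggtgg

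Both strands were searched for 6 motifs. The core of the cAMP response element (CRE) was searched as CGTCA. The E-box, bound by basic helix-loop-helix factors, was searched as CACGTG. For the C/EBP family the letters were TTNCGCAA, where N is any base. The GC box, bound by SP1, was searched as GGGCGG. The TATA box was searched as TATAAA, and the NF-κB motif was searched as well. The Ptgs2 window held a GC box at positions 81 to 86, counted from its first base, a C/EBP match at 182 to 189, a CRE core at 264 to 268 and an E-box at 267 to 272. The last 2 matches overlap. The C/EBP letters were present in 0.798% of 32851 windows of the same length, the E-box in 7.15%, the CRE core in 20.8%, the GC box in 35.7%, the TATA box in 13.6% and the NF-κB letters in 4.79%. Hpgd held a GC box at 201 to 206 and a TATA box at 255 to 260. This TATA match also lies after the RefSeq start. It lies before the GENCODE start of Hpgd, chr8:56294585, which is further downstream. The Ptgs1 window held none of the 6 motifs. Members with smaller changes held matches too. Ptges3 and Ptger4 had 4 GC boxes each and Ptges had 2. Ptges3 also had a CRE core, Ptges2 an E-box and a Pla2g4a window a TATA box. Windows were found for 8 of the 10 members; the other 2, Ptgis and Ptger1, had none in the table used. A match is a description of letters and not of a bound factor.

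All 10 members passed the filter on low counts. Ptgs2, Hpgd, Pla2g4a, Ptgs1 and Ptges3 fell in Ad-Cre, the other 5 passed the test in neither direction, and 0 members rose. Over all 13337 genes tested, 20.5% were called lower, 19.8% higher and 40.3% in either direction by edgeR's quasi-likelihood test with an adjusted p under 0.05. So 5 of 10 members were called lower. The median log2 fold change was -0.20 over the 10 members against 0.00 over all genes tested. Of the members, 9 had a negative log2 fold change, and the exception was Ptgis. In 4 members the 4 Ad-Cre libraries did not overlap the 4 Ad-GFP libraries, always with the lower values in Ad-Cre. Over all genes tested, 35.4% did not overlap, and 18.2% did not overlap with the lower values in Ad-Cre. With whole cultures sequenced, fewer cells of a type and less RNA per cell cannot be told apart.

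**Figure D1:**
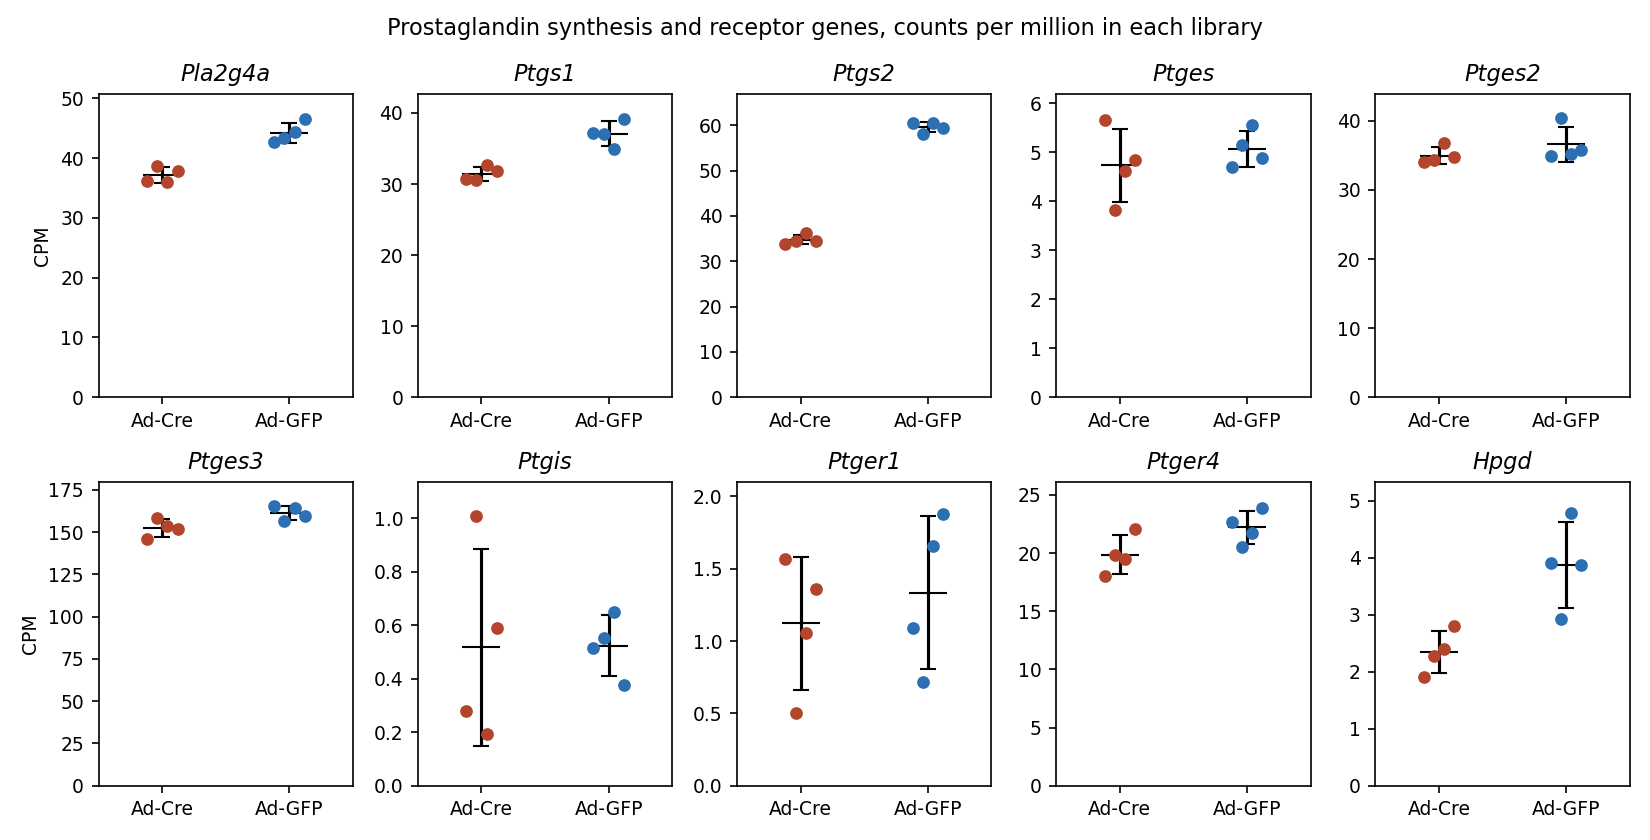
CPM (y axis from 0) of the 10 genes in the 4 Ad-Cre (left) and 4 Ad-GFP (right) libraries; points are libraries, the horizontal bar is the mean and the whiskers are ± 1 SD. Ptgs2, Pla2g4a, Ptgs1 and Hpgd have no overlap between groups, with Ptgs2 at 33.9 to 36.2 CPM in Ad-Cre and 58.1 to 60.5 CPM in Ad-GFP.

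Pla2g4a (ENSMUSG00000056220; minus strand, chr1:149829618-149961290, GRCm38) encodes the phospholipase that supplies arachidonic acid. It was at 36.1, 38.7, 36.05 and 37.8 CPM in the Ad-Cre libraries 1 to 4, against 42.7, 43.4, 44.4 and 46.5 CPM in Ad-GFP replicates 1 to 4. Every Ad-Cre library was below every Ad-GFP library. On the log2 scale the change was -0.25 ± 0.045 (SE, n = 4 per group; edgeR adjusted p = 7.60e-05), or 84.2% of Ad-GFP. Its annotated 5′ end is 138.7 kb from that of Ptgs2 on the same chromosome, and the pair is read in opposite directions, away from each other.

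Ptgs2 (ENSMUSG00000032487; plus strand, chr1:150100031-150108227), the inducible cyclooxygenase gene with the GC box and C/EBP letters shown above, had the largest fall of the 10. Its level was 33.9, 34.5, 36.2 and 34.4 CPM in the Ad-Cre libraries, in replicate order, and 60.4, 58.1, 60.5 and 59.5 CPM in Ad-GFP replicates 1 to 4. Both groups were tight and lay far apart, with 605 to 821 counts per library in Ad-Cre and 951 to 1054 in Ad-GFP. The log2 fold change was -0.78 ± 0.041 (SE, n = 4 per group; edgeR adjusted p = 3.70e-14), or 58.3% of Ad-GFP. No annotated exon of another gene overlaps those of Ptgs2, and 0 of its 4530 transcript 50-mers occur in transcripts of another gene.

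Ptgs1 (ENSMUSG00000047250; plus strand, chr2:36230426-36252272), the constitutive cyclooxygenase gene, also fell. Its level was 30.7, 30.5, 32.7 and 31.9 CPM in Ad-Cre, against 37.2, 37.1, 34.9 and 39.1 CPM in Ad-GFP. The groups did not overlap. Its log2 fold change was -0.24 ± 0.048 (SE, n = 4 per group; edgeR adjusted p = 0.000317), or 84.8% of Ad-GFP. An unassigned antisense locus, Gm43621, shares 148 exon bases with Ptgs1.

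The cyclooxygenase genes were compared with each other within each library, which needs no scaling between libraries. The Ptgs2 to Ptgs1 count ratio was 1.102, 1.131, 1.107 and 1.081 in Ad-Cre, against 1.62, 1.57, 1.73 and 1.52 in Ad-GFP. It was lower in each Ad-Cre library than in any Ad-GFP library, at 68.7% of Ad-GFP (log2 difference -0.54). The exact permutation test, two-sided, gave p = 0.0286, the smallest that 4 against 4 libraries allow. Its adjusted p was 0.0857 over the 3 ratios tested, so the difference did not pass the correction. A ratio at this smallest p could not pass unless another ratio also came near it, so the corrected test cannot decide here. Per length, in the authors' FPKM (counts scaled by gene length and library size), Ptgs2 was at 7.75 ± 0.22 in Ad-Cre and 13.5 ± 0.23 in Ad-GFP, and Ptgs1 at 10.9 ± 0.34 in Ad-Cre and 13.0 ± 0.62 in Ad-GFP (SD, n = 4 each). Ptgs2 was the lower of the pair in all 4 Ad-Cre libraries and the higher of the pair in 3 of 4 Ad-GFP libraries. Its share of their summed FPKM was 41.6% ± 0.44 in Ad-Cre and 50.9% ± 1.4 in Ad-GFP, and the sum was 18.6 ± 0.54 FPKM in Ad-Cre and 26.5 ± 0.57 FPKM in Ad-GFP (SD, n = 4 each).

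**Figure D2:**
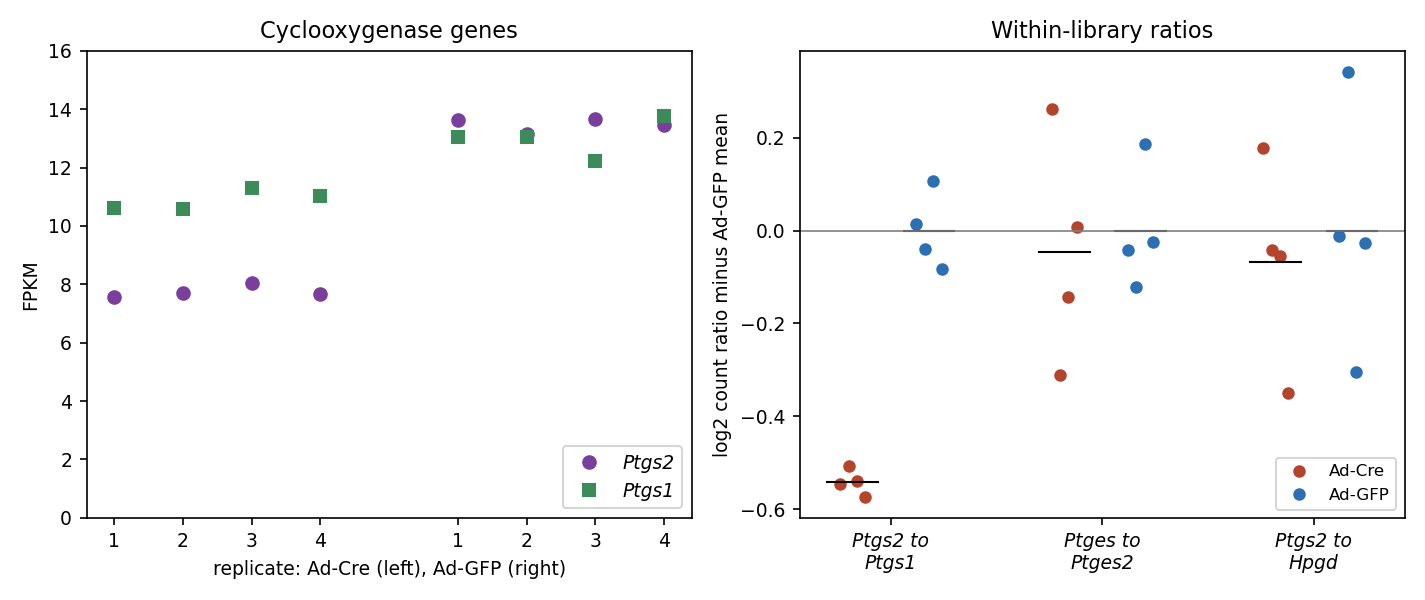
Left, FPKM of Ptgs2 (circles) and Ptgs1 (squares) in each library, Ad-Cre replicates 1 to 4 before Ad-GFP replicates 1 to 4. Right, within-library count ratios of 3 gene pairs on a log2 scale, each set to its Ad-GFP mean; points are libraries, short lines are group means, and the Ptgs2 to Ptgs1 ratio sits at -0.54 on average in Ad-Cre.

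The PGE synthase genes had small log2 fold changes, and of these Ptges3 alone passed the test. Ptges3 (ENSMUSG00000071072; plus strand, chr10:128058954-128077272), which encodes the cytosolic synthase also known as the HSP90 co-chaperone p23, was the most abundant member per length, at 75.7 ± 2.6 FPKM in Ad-Cre and 81.4 ± 1.9 FPKM in Ad-GFP (SD, n = 4 each). It was at 146.1, 158.6, 153.5 and 151.6 CPM in Ad-Cre and 165.2, 156.7, 164.2 and 159.6 CPM in Ad-GFP, so Ad-Cre replicate 2 lay above Ad-GFP replicate 2. This small fall was -0.08 ± 0.028 on the log2 scale (SE, n = 4 per group; edgeR adjusted p = 0.0246), or 94.5% of Ad-GFP. That call was lost without Ad-Cre replicate 1 (adjusted p = 0.0868), without Ad-Cre replicate 4 (0.0540), without Ad-GFP replicate 1 (0.0778) and without Ad-GFP replicate 3 (0.0715). Of its transcript 50-mers, 19.6% also occur in other genes, chiefly the pseudogene Ptges3-ps, so the assignment of part of its reads is uncertain.

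Ptges (ENSMUSG00000050737; minus strand, chr2:30889471-30929863), the inducible microsomal PGE synthase gene that often accompanies Ptgs2 in inflammation, was low. It was at 5.65, 3.83, 4.61 and 4.85 CPM in Ad-Cre and 4.70, 5.14, 5.56 and 4.88 CPM in Ad-GFP, and the groups overlapped. Its log2 fold change was -0.11 ± 0.13 (SE, n = 4 per group; edgeR adjusted p = 0.527). Ptges2 (ENSMUSG00000026820; plus strand, chr2:32395896-32405772), a constitutive membrane-associated PGE synthase gene, was at 34.02, 34.3, 36.8 and 34.8 CPM in Ad-Cre and 34.98, 40.4, 35.2 and 35.8 CPM in Ad-GFP. Only Ad-GFP replicate 2 stood apart, and the log2 fold change was -0.07 ± 0.051 (SE, n = 4 per group; edgeR adjusted p = 0.312). The gene length implied by its counts and FPKM was 4.98 kb in the Ad-Cre libraries and 4.48 to 4.98 kb in the Ad-GFP libraries, so its FPKM and its counts do not give the same difference: on log2(FPKM + 1) it was -0.15 (limma adjusted p = 0.0655). The within-library Ptges to Ptges2 ratio differed by -0.05 on the log2 scale (exact permutation p = 0.80, two-sided; adjusted p = 0.80), with overlapping groups.

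Ptgis (ENSMUSG00000017969; minus strand, chr2:167191805-167240604), the prostacyclin synthase gene, was at the lower edge of detection, with 5, 24, 4 and 13 counts in Ad-Cre and 9, 10, 11 and 6 counts in Ad-GFP. Its level scattered from 0.192 to 1.01 CPM within Ad-Cre and from 0.375 to 0.650 CPM within Ad-GFP. Its log2 fold change was 0.04 ± 0.41 (SE, n = 4 per group; edgeR adjusted p = 0.954). The Ad-Cre libraries spread more widely than the Ad-GFP libraries, and the groups overlapped.

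Receptor genes gave no call among the members. Ptger4 (ENSMUSG00000039942; minus strand, chr15:5206661-5244187) encodes EP4, which couples to cAMP production. It was at 18.02, 19.8, 19.5 and 22.1 CPM in Ad-Cre and 22.6, 20.5, 21.8 and 23.9 CPM in Ad-GFP. Ad-Cre replicate 4 reached into the Ad-GFP range. The log2 fold change was -0.16 ± 0.066 (SE, n = 4 per group; edgeR adjusted p = 0.0630), and it passed the threshold without Ad-Cre replicate 4 (adjusted p = 0.0169) and without Ad-GFP replicate 2 (adjusted p = 0.0354). It also passed with upper-quartile factors (adjusted p = 0.0385) and with a filter of at least 5 CPM (adjusted p = 0.0409). Ptger4 did not pass with DESeq2 (adjusted p = 0.105), limma-voom (0.0723) or limma on log2(FPKM + 1) (0.0870). Without 1 library, the call stayed absent in 6 of 8 edgeR fits (adjusted p up to 0.194). A processed pseudogene, Gm15937, lies antisense over 1015 bases of its exons.

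Ptger1 (ENSMUSG00000019464; plus strand, chr8:83666678-83672753) encodes EP1, which raises intracellular calcium. It had 28, 12, 22 and 30 counts in Ad-Cre and 19, 13, 28 and 30 counts in Ad-GFP, and both groups covered nearly the same range. The log2 fold change was -0.27 ± 0.31 (SE, n = 4 per group; edgeR adjusted p = 0.525). The assignment of reads to Ptger1 is uncertain, since the strand setting of the counting is unknown.

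Hpgd (ENSMUSG00000031613; plus strand, chr8:56294585-56321043), the prostaglandin-inactivating dehydrogenase gene with the TATA box shown above, fell about as far as Ptgs2 from a much lower level. It was at 1.90, 2.27, 2.40 and 2.81 CPM in Ad-Cre and 3.90, 2.93, 4.79 and 3.88 CPM in Ad-GFP. The groups did not overlap, although Ad-Cre replicate 4 and Ad-GFP replicate 2 were close. The log2 fold change was -0.71 ± 0.17 (SE, n = 4 per group; edgeR adjusted p = 0.00170), or 61.2% of Ad-GFP, on 34 to 62 counts per library in Ad-Cre and 53 to 81 in Ad-GFP. The within-library Ptgs2 to Hpgd ratio was 17.6, 15.1, 14.9 and 12.2 in Ad-Cre and 15.4, 19.7, 12.6 and 15.2 in Ad-GFP. It differed by -0.07 on the log2 scale (exact permutation p = 0.657, two-sided; adjusted p = 0.80), and the groups overlapped.

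**Figure D3:**
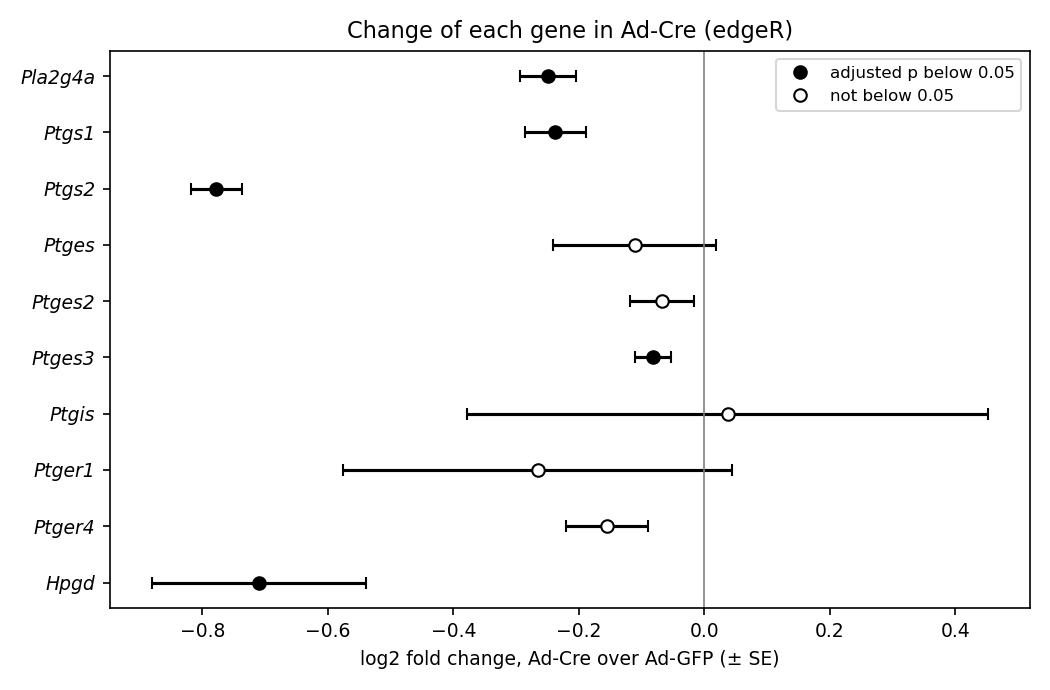
Log2 fold change of each gene, Ad-Cre over Ad-GFP, with its standard error, ordered from arachidonate release to degradation; filled points have an edgeR adjusted p below 0.05. Ptgs2 (-0.78) and Hpgd (-0.71) lie apart from Pla2g4a (-0.25), Ptgs1 (-0.24) and Ptges3 (-0.08).

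Ordered by mean FPKM, the levels in Ad-Cre ran Ptges3, Pla2g4a, Ptgs1, Ptgs2, Ptges2, Ptger4, Hpgd, Ptges, Ptgis and Ptger1. In Ad-GFP the order was Ptges3, Pla2g4a, Ptgs2, Ptgs1, Ptges2, Ptger4, Hpgd, Ptges, Ptger1 and Ptgis. Neighbours whose library ranges overlapped were Hpgd with Ptges and Ptgis with Ptger1 in Ad-Cre. In Ad-GFP they were Ptgs2 with Ptgs1, Ptges2 with Ptger4, and Ptger1 with Ptgis. All other neighbours were separated in each of the 4 libraries of a group.

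In the authors' deposited table, Ptgs2, Pla2g4a, Ptgs1 and Hpgd have an FDR of 6.04e-48, 0.000129, 0.00104 and 0.00445. Ptges3, with an FDR of 0.0640 there, is not below 0.05. Over all genes in the authors' deposited table, the share below 0.05 is 18.7%. That share is over 22322 genes, of which 13337 passed the filter on low counts used here. All 10 members passed it, so the share is not a like measure for them.

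The genes with the profile closest to Ptgs2, by the root mean square difference of centred log2 CPM over the 8 libraries among 10686 genes of at least 5 CPM, were Ptp4a3 (0.045), Cav1 (0.047) and Ptprd (0.051), against a median of 0.41 over those genes. Ptp4a3 encodes a phosphatase, Cav1 the caveolar coat protein caveolin-1 and Ptprd a receptor phosphatase. Cav1 was at 65.4 ± 3.4 CPM in Ad-Cre and 109.6 ± 1.7 CPM in Ad-GFP (SD, n = 4 each). For Hpgd the closest were Ccne2 (0.14), Zfpm2 (0.15) and Ncf1 (0.15), against a median of 0.42. Ccne2 encodes a cyclin of the G1/S transition, Zfpm2 a GATA cofactor and Ncf1 a subunit of the phagocyte NADPH oxidase. The measure includes the difference between groups, so these genes share a fall of like size by construction.

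Around these 10 genes, 9 other prostanoid synthase genes were listed. Of these, 8 were tested, 2 rose and 0 passed the test as lower, beside 19.8% higher and 20.5% lower over all genes tested. The untested gene, Akr1c18, which encodes a reductase that breaks down progesterone, had 0, 0, 2 and 1 counts in Ad-Cre and 11, 11, 9 and 13 counts in Ad-GFP, with no overlap. With no filter on low counts, 1 of the 9 was called lower. Akr1b3, aldose reductase, whose family includes prostaglandin F synthases, rose to 353 ± 29 CPM in Ad-Cre, against 244 ± 26 CPM in Ad-GFP (SD, n = 4 each; log2 fold change 0.53 ± 0.052 SE; edgeR adjusted p = 6.38e-09). Cbr1, a carbonyl reductase that can act on PGE2, rose to 111.4% of Ad-GFP (adjusted p = 0.0296), with overlapping groups. The Cbr1 call was lost with DESeq2 (adjusted p = 0.0505) and with limma on log2(FPKM + 1) (adjusted p = 0.623). Akr1b8 was at 57.9 ± 3.4 CPM in Ad-Cre and 54.6 ± 1.4 CPM in Ad-GFP (adjusted p = 0.135).

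Among the 7 other prostanoid receptor genes, only Ptger3 and Ptgfr had enough counts to be tested, and Ptger3 rose. It encodes EP3, which lowers cAMP, the opposite coupling to EP4. It had 216, 245, 281 and 282 counts in Ad-Cre and 156, 158, 144 and 120 counts in Ad-GFP, or 12.2 ± 1.4 CPM in Ad-Cre and 8.42 ± 0.64 CPM in Ad-GFP (SD, n = 4 each; log2 fold change 0.52 ± 0.094 SE; edgeR adjusted p = 7.45e-05). The groups did not overlap. Per length, Ptger3 was at 5.44 ± 0.56 FPKM in Ad-Cre and 3.84 ± 0.29 FPKM in Ad-GFP, and Ptger4 at 6.01 ± 0.50 FPKM in Ad-Cre and 6.83 ± 0.44 FPKM in Ad-GFP. Ptger2, the second cAMP-raising EP receptor gene, had at most 6 counts in a library. Ptgfr, the PGF receptor gene, was at 1.30 ± 0.31 CPM in Ad-Cre and 1.09 ± 0.28 CPM in Ad-GFP (adjusted p = 0.470).

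Transport and breakdown genes fell in 3 of 7 cases and rose in 0, beside 20.5% lower and 19.8% higher over all genes tested. Slco2a1, the prostaglandin uptake transporter gene that feeds Hpgd, fell to 219 ± 7.3 CPM in Ad-Cre, against 260 ± 11 CPM in Ad-GFP (SD, n = 4 each; log2 fold change -0.24 ± 0.029 SE; edgeR adjusted p = 1.62e-07). Ptgr1, the reductase acting after Hpgd, fell to 67.6% of Ad-GFP (adjusted p = 5.21e-05) and Zadh2, a further prostaglandin reductase gene, to 91.4% (adjusted p = 0.0295; 0.0527 with limma on log2(FPKM + 1)). The exporter gene Abcc4 was at 534 ± 11 CPM in Ad-Cre and 525 ± 12 CPM in Ad-GFP (adjusted p = 0.352).

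Of 23 genes of other phospholipases A2 and arachidonate supply, 14 were tested, 4 fell and 2 rose. The shares over all genes tested were 20.5% lower and 19.8% higher. Anxa1, annexin A1, known as an inhibitor of phospholipase A2 activity, fell to 236 ± 8.6 CPM in Ad-Cre, against 360 ± 9.5 CPM in Ad-GFP (SD, n = 4 each; log2 fold change -0.61 ± 0.026 SE; edgeR adjusted p = 1.68e-15). Pla2g7, the platelet-activating factor hydrolase gene, Acsl4, which activates arachidonate for storage, and Mgll, the monoglyceride lipase gene, fell to 79.4%, 92.3% and 57.9% of Ad-GFP. Faah, which hydrolyses anandamide, and the desaturase gene Fads2 rose to 114.8% and 107.5% of Ad-GFP. These 5 had adjusted p-values from 0.000275 to 0.0164 by edgeR's test. The Fads2 groups overlapped, and its call was lost with DESeq2 (adjusted p = 0.122) and with limma on log2(FPKM + 1) (adjusted p = 0.209), under which that of Pla2g7 was lost too (adjusted p = 0.127). Fads1 was at 101.6% of Ad-GFP (adjusted p = 0.577).

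Arachidonate can also enter the lipoxygenase route, in which 3 of 6 tested genes fell and 1 rose, out of 13 listed. Beside this, 20.5% of all genes tested were called lower and 19.8% higher. Alox12, 12-lipoxygenase, was at 0.929 ± 0.19 CPM in Ad-Cre and 2.95 ± 0.42 CPM in Ad-GFP, and Alox5, 5-lipoxygenase, at 1.11 ± 0.042 CPM in Ad-Cre and 3.06 ± 0.52 CPM in Ad-GFP (SD, n = 4 each). Their log2 fold changes were -1.64 ± 0.21 and -1.46 ± 0.20 (SE; edgeR adjusted p = 6.12e-07 and 1.26e-06). Alox5ap, the 5-lipoxygenase activating protein gene, fell to 58.3% on 12 to 32 counts per library (adjusted p = 0.0268), with overlapping groups and an adjusted p of 0.0530 with DESeq2. Lta4h, the leukotriene A4 hydrolase gene, rose to 109.2% (adjusted p = 0.00805). With limma on log2(FPKM + 0.1), 0 lipoxygenase genes were called. Cysltr1 was at 91.6% of Ad-GFP (adjusted p = 0.417). All these levels other than those of Lta4h and Cysltr1 were under 5 CPM. Lta4h alone passed a filter of at least 5 CPM on the mean over the libraries, and Cysltr1 did not. Of 12 arachidonate epoxygenase and hydroxylase genes, 8 were tested, and Cyp4a12a (29.8% of Ad-GFP; adjusted p = 7.05e-06) and Cyp4f18 (41.8%; adjusted p = 8.28e-05) fell, both under 5 CPM. Ephx1 was at 103.6% (adjusted p = 0.159).

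**Figure D4:**
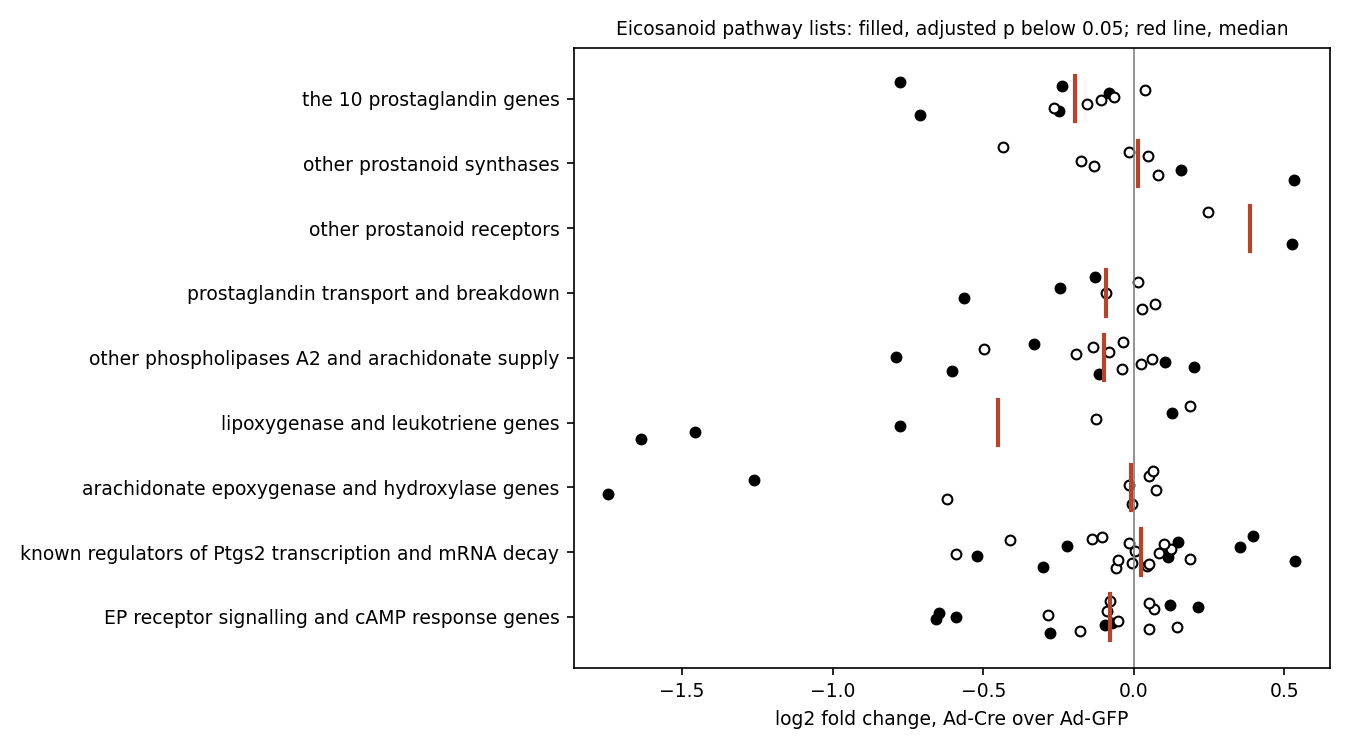
Log2 fold change, Ad-Cre over Ad-GFP, of each tested gene (points) in the 10 prostaglandin genes and 8 related lists; filled points have an edgeR adjusted p below 0.05 and the red line is the list median. The median is -0.20 for the 10 genes, against 0.00 for all genes tested. It is -0.45 for lipoxygenase genes, -0.10 for phospholipases A2 and arachidonate supply, and -0.09 for transport and breakdown. For EP receptor signalling it is -0.08 and for epoxygenase and hydroxylase genes -0.01. Other prostanoid synthases and the regulators of Ptgs2 are at 0.02 each, and the 2 tested other receptors at 0.39.

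Genes known to control Ptgs2 transcription or the stability of its mRNA were called in 9 of 24 cases, with 6 higher, 3 lower and 15 not called, which is near the 40.3% called over all genes tested. Nfkb1, the NF-κB p105 subunit gene, rose to 127.7% of Ad-GFP (edgeR adjusted p = 4.58e-10) and Egr1, an immediate early factor, to 145.0% (adjusted p = 4.21e-06). Zfp36l1, which promotes decay of mRNAs with AU-rich elements, rose to 131.4% (adjusted p = 4.50e-13), Khsrp, also a decay factor, to 108.6% (adjusted p = 0.00201) and Tia1, a translational silencer, to 110.7% (adjusted p = 0.00217; 0.121 with limma on log2(FPKM + 1)). Cebpd, encoding C/EBPδ, fell to 17.99 ± 0.54 CPM in Ad-Cre, against 22.2 ± 0.81 CPM in Ad-GFP (SD, n = 4 each; adjusted p = 0.000167). Rela was at 98.8% of Ad-GFP (adjusted p = 0.670).

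Of 17 tested genes of EP receptor signalling and the cAMP response, 6 fell and 2 rose. Over all genes tested, 20.5% were called lower and 19.8% higher, 40.3% in either direction. The cAMP phosphodiesterase gene Pde4b fell to 12.01 ± 1.0 CPM in Ad-Cre, against 18.8 ± 0.63 CPM in Ad-GFP (SD, n = 4 each; log2 fold change -0.65 ± 0.071 SE; edgeR adjusted p = 4.87e-08). The cAMP-inducible nuclear receptor genes Nr4a1 and Nr4a2 fell to 63.5% and 66.5% of Ad-GFP (adjusted p = 8.70e-05 and 0.000226), and Gnai2, an inhibitory G protein subunit gene, to 93.5% (adjusted p = 0.00174). The protein kinase A subunit genes Prkacb and Prkar1a rose to 115.9% and 108.7% (adjusted p = 3.01e-05 and 0.000153). Prkar2a was at 103.5% (adjusted p = 0.265).

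Cell type markers were compared between Ad-Cre and Ad-GFP as well, beside 20.5% lower and 19.8% higher over all genes tested. Endothelial markers fell in 11 of 12 cases, with a summed level of 78.7 to 89.6 CPM in Ad-Cre and 157 to 164 CPM in Ad-GFP, led by Cdh5 and Pecam1. Macrophage and leukocyte markers fell in 9 of 12 cases, with a sum of 246 to 257 CPM in Ad-Cre and 278 to 319 CPM in Ad-GFP, led by Lyz2 and Csf1r. Of 6 tested mural markers 4 fell (232 to 245 CPM in Ad-Cre and 266 to 280 CPM in Ad-GFP; Mcam and Notch3 were highest). Of 10 tested fibroblast markers 6 fell and 0 rose (502 to 578 CPM in Ad-Cre and 775 to 821 CPM in Ad-GFP). None of these 4 lists had a marker at 0 in every library. Epithelial markers went both ways, 4 up and 4 down of 9. Of 7 tested collecting duct markers 2 rose and 1 fell (146 to 152 CPM in Ad-Cre and 125 to 130 CPM in Ad-GFP; Scnn1a and Gata3 were highest), and Aqp2 was at 0. Of 5 tested proximal tubule markers 4 rose (162 to 186 CPM in Ad-Cre and 114 to 129 CPM in Ad-GFP; Ggt1 and Havcr1 were highest), and Slc22a6 was at 0. The part of these cell types in the prostaglandin results was not tested.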

How the data were processed

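RNA was extracted with Trizol, per the labels' protocols, and 4 Ad-Cre and 4 Ad-GFP libraries were grouped by their titles. The authors deposited whole-number read counts per gene, FPKM of each library, the mean FPKM of each group, the log2 ratio of those means and p-values with an FDR, per the file headers. The submitters' processing notes name GRCm38 and mm10; no source used here names the aligner, the counter, its strand setting or the authors' test.

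Counts were fitted with edgeR 4.0.16 in R 4.3.3 after filterByExpr, with TMM factors and the quasi-likelihood test, two-sided, adjusted by Benjamini-Hochberg over all 13337 genes tested; a gene rose or fell where its adjusted p was under 0.05. A standard error is the absolute log2 fold change over the square root of F. CPM are relative to TMM-scaled totals. Ratios used count + 0.5 and an exact permutation test (scipy 1.17.1). Other settings used DESeq2 1.42.0 and limma 3.58.1.

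The members, lists, tests and rules were chosen with earlier results of these data known. Besides the members and Suv39h1, the text names up to 6 called genes of smallest p and the uncalled gene of highest CPM of each pathway list, the 2 markers of highest CPM of each cell type list, and the 3 genes closest in profile to the 2 members of largest called change. Thy1, Lum, Ptger2, Aqp2, Slc22a6 and the genes that overlap or resemble a member were named after their values were seen. Positions are from GENCODE M21 (GRCm38) and promoters from RefSeq (GRCm38.p6).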

Additional observations from a re-analysis of the deposited data

Results flagged for a closer look

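Of 40 groups of 4 libraries examined (the CPM of each member, the 3 ratios and the 7 summed marker lists), 1 had a library far from the others. Ptges2 was at 40.4 CPM in Ad-GFP replicate 2, while the other Ad-GFP libraries lay at 34.98 to 35.8 CPM, a gap of 0.842 of the group's range. Chance flags about 1 in 20 groups. Without that library the log2 fold change of Ptges2 was -0.01 (edgeR adjusted p = 0.847).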

How the results depend on the processing

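Ptgs2, Hpgd, Pla2g4a and Ptgs1 kept their fall and their call under every alternative that could test them; Hpgd was not tested with the filter of at least 5 CPM. The number of members called was 5 to 6 under the other settings and 4 to 6 without 1 library. Among all genes, limma on log2(FPKM + 1) called 3530 and on log2(FPKM + 0.1) 3520, against 5370. Ptges3 ranged from -0.10 to -0.063 without 1 library and lost its call in 4 of 8 cases. Ptger4 passed the threshold with upper-quartile factors (-0.18), with the filter of at least 5 CPM (-0.17) and with the replicate block (-0.16), and ranged from -0.21 to -0.12 without 1 library; the cause was not tested. Ptgis turned negative under limma-voom (-0.22) and the replicate block (-0.024), and ranged from -0.085 to 0.31 without 1 library. The Ptges to Ptges2 ratio turned positive on FPKM (0.036) and ranged from -0.15 to 0.042 without 1 library, and the Ptgs2 to Hpgd ratio from -0.17 to 0.047; with 4 against 3 libraries the smallest exact p is 0.0571, above the threshold. Of 270 counts over the 15 other lists, 257 stayed within 1.5 times and 13 did not. Other prostanoid synthases had 1 to 4 calls. The lipoxygenase genes had 4 calls in the main fit and 1 with the filter of at least 5 CPM. The FPKM filter, which leaves out genes of low level, kept 3 of them. Limma called 1 of these on log2(FPKM + 1), as higher, and 0 on log2(FPKM + 0.1).

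Same-numbered libraries did not deviate together (correlations of -0.01 to 0.10), and the labels state no pairing, so the replicate block is an alternative only. With it, Ptgs2 was at -0.78, Hpgd at -0.71, and Ptger4 joined the calls (adjusted p = 0.0446). Paired by number, the 3 ratios cannot go below an exact p of 0.125. Ptgis and Ptger1 had at most 30 counts in a library.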
